A study of Mus musculus with 6 samples.

Results

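The 10 genes described here, *Arntl*, *Clock*, *Npas2*, *Per1*, *Per2*, *Per3*, *Cry1*, *Nr1d1*, *Nr1d2* and *Dbp*, are core and output genes of the circadian clock. They were found by gene symbol among the 23183 symbols measured in brain microvessels of mice on a C57BL/6 background. WT mice (TEK-cre, *Crif1*+/+, n = 3) and TEKCRIF1 KO mice (TEK-cre, *Crif1* flox/flox, n = 3) were compared, 1 RNA library for each sample. All mice carried the Cre recombinase, which is driven by the promoter of *Tek*, a receptor gene of endothelial cells that is also used by some blood cell lineages, so that *Crif1* (*Gadd45gip1*), a gene needed for mitochondrial protein synthesis, is lost in KO mice from cells with a history of *Tek* expression and not from pericytes, astrocytes or neurons. The study's methods state a regular light-dark cycle, beside the mice of its haemorrhage model, while the age of the sequenced mice and the hour at which their brains were taken are not given in the sources used here. A difference in collection time between mice and a difference between genotypes therefore cannot be told apart. The libraries came from separate mice by the study's account, and whether these were prepared on separate days is not given.

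The circadian clock is a feedback loop of transcription that runs in nearly every cell. ARNTL (also called BMAL1) pairs with CLOCK or with its close relative NPAS2 and activates genes with E-box sequences in their promoters, among them the *Per* and *Cry* genes, *Nr1d1*, *Nr1d2* and *Dbp*. PER and CRY proteins then inhibit this activator, while NR1D1 and NR1D2 (REV-ERB alpha and beta) repress *Arntl*, *Clock* and *Npas2* through ROR response elements, so that in most tissues *Arntl* and *Npas2* peak at about the time when *Nr1d1* and *Dbp* are lowest. Endothelial cells, pericytes, astrocytes and neurons all hold such clocks, and *Nr1d1* and *Dbp* are among the transcripts with the widest daily swing.

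Promoter sequences from RefSeq (GRCm38.p6) were available for 9 of the 10 genes, with 13 start sites in all. *Per2* had none. The 250 bases before each start were searched on both strands for the E-box CACGTG, the D-box TTATGNAA bound by DBP and its relatives, the ROR element (AA and any base before TAGGTCA or TGGGTCA), and the cAMP response element TGACGTCA. *Per1* and *Cry1* held an E-box, a sequence found in 6.02% of the 32851 promoters of the same length. *Per1* and *Per3* held a D-box, found in 3.07% of all promoters. None of the 13 stretches held the ROR element (0.35% of all promoters) or the cAMP response element (1.55%). These matches are a description of letters in this window and not of bound sites, and sequence outside the window was not searched. The 3 stretches with a match are shown because *Per1*, *Per3* and *Cry1* belong to the inhibiting arm whose transcripts are compared below, with the motifs in capitals and the base next to the start site last. They lie at chr11:69098699-69098948 on the + strand for *Per1*, at chr4:151044666-151044915 on the - strand for *Per3* and at chr10:85185055-85185304 on the - strand for *Cry1*.
Per1: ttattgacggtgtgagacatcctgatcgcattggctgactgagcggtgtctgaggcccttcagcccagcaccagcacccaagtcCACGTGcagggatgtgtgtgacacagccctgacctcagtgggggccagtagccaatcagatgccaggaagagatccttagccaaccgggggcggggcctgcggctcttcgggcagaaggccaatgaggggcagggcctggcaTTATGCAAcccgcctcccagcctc
Per3: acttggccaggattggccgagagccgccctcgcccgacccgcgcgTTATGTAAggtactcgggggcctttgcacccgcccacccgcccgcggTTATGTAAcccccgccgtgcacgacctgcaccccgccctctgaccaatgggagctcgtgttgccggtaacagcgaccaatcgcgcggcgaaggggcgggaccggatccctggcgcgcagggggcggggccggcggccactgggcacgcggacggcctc
Cry1: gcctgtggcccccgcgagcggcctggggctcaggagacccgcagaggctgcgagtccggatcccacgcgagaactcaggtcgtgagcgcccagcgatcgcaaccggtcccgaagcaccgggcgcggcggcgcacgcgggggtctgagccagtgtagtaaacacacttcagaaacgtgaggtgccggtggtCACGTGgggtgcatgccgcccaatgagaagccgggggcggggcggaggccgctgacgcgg
In *Per1* the E-box began 166 bases and the D-box 24 bases before the start shown, and the stretch before the other *Per1* start held none of the motifs. In *Per3* the D-boxes began 205 and 158 bases before it, and in *Cry1* the E-box began 60 bases before it.

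*Gadd45gip1* had 18.8, 15.3 and 16.5 FPKM across the WT libraries against 10.8, 7.54 and 10.4 across the KO libraries, with values given here and below in the order of replicates 1, 2 and 3, so the labels and the targeted transcript went the same way in all 6 libraries. Depth, estimated from the spacing of the lowest FPKM values (fragments scaled to transcript length and library total), was between 6200000 and 11600000 fragments per library. Summed FPKM over marker lists lay between 714 and 1052 for endothelial cells, 204 and 331 for pericytes, 225 and 754 for smooth muscle, 265 and 437 for astrocytes, 77.1 and 106 for microglia, and 143 and 382 for oligodendrocytes. They lay between 103 and 282 for neurons, 784 and 1778 for fibroblasts, 1124 and 2215 for red blood cells and 2809 and 10406 for choroid plexus. The preparations thus held transcripts of many cell types with clocks of their own, and in such bulk RNA fewer cells of a type and less RNA per cell cannot be told apart. The sums did not overlap between genotypes for fibroblasts, at 1186 to 1778 in WT and 784 to 1088 in KO mice, and for microglia, at 94.1 to 106 in WT and 77.1 to 90.3 in KO mice, and the part of this in the clock gene values was not tested. KO 1 and KO 3 stood apart in the choroid plexus sum, at 8741 and 10406, against 2809 to 3288 in WT mice and 2922 in KO 2. KO 1 and KO 2 stood apart in a trend with transcript length, with a Spearman correlation over 13726 genes between length and deviation from the 6-library mean of -0.3 and 0.29, against 0.01 to 0.05 in WT mice and -0.14 in KO 3. The same correlation with GC content was 0.31 in WT 2 and -0.25 in KO 2, against -0.14 to 0.15 in the other 4 libraries. WT 2 and KO 2 were also the libraries with the highest and lowest *Nr1d1*, and the part of the GC trend in this was not tested.

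All 10 clock genes were detected in every library. By mean FPKM over the 6 libraries, *Per1* (22.8 ± 6.47) and *Nr1d1* (22.6 ± 8.96) were highest (SD, n = 6) and did not differ beyond their spread. *Dbp* had 19.7 ± 2.55 FPKM, *Nr1d2* 12.8 ± 2.42, *Clock* 9.94 ± 2.56, *Cry1* 6.28 ± 1.07, *Per3* 5.97 ± 0.901 and *Arntl* 5.51 ± 1.21 (SD, n = 6). *Per2* (3.63 ± 0.651) and *Npas2* (2.15 ± 0.777) were lowest. *Dbp* lay within the SD of *Nr1d1*, and *Cry1*, *Per3* and *Arntl* each lay within the SD of their neighbour, while the other steps in this order were wider than either SD. The lowest single value, that of *Npas2* in WT 2, rested on about 37 fragments, the smallest number behind any of the 60 values by the estimated depth and the longest annotated transcript. Between relatives, the order was steadier than the levels. *Clock* exceeded *Npas2*, its partner-sharing relative, in 6 of 6 libraries, by a ratio of FPKM between 3.14 and 6.95. *Per1* exceeded *Per2* in 6 of 6 libraries, by a ratio between 3.40 and 9.25. *Nr1d1* exceeded *Nr1d2* in 5 of 6 libraries, and KO 2 was the exception with a ratio of 0.749.

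**Figure D1:**
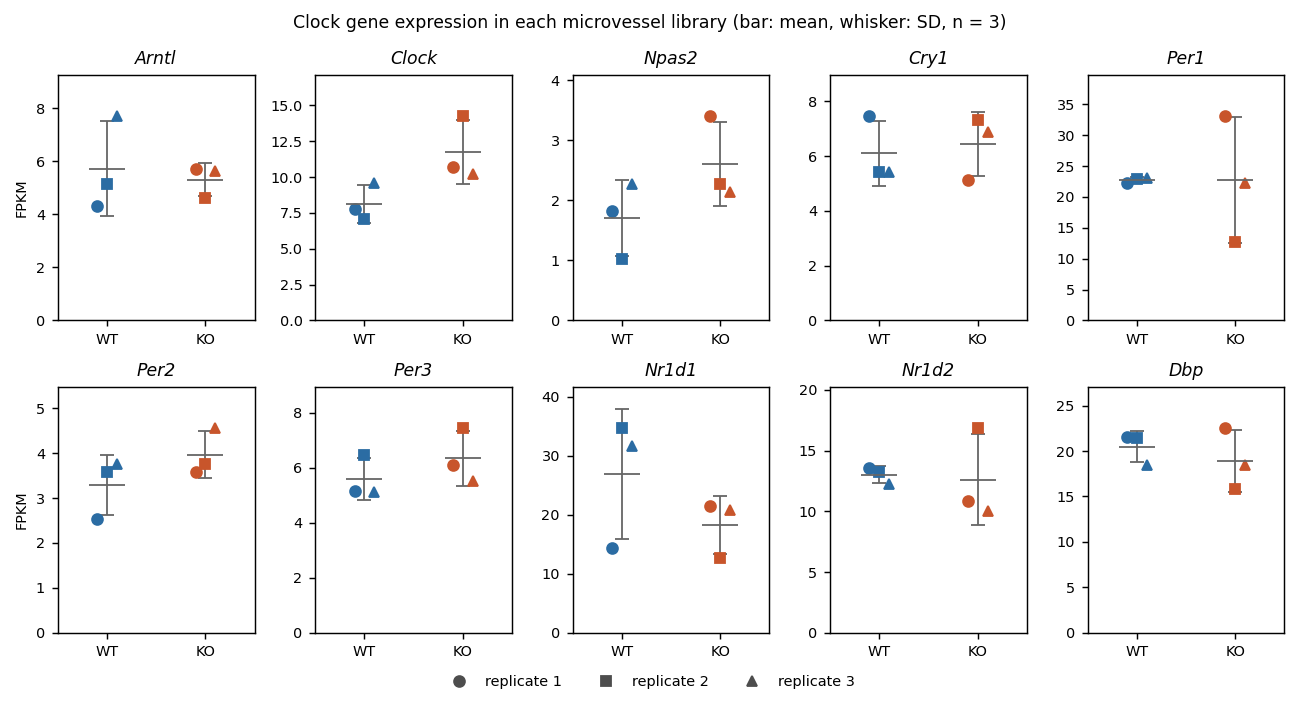
FPKM of each of the 10 clock genes (vertical axes start at 0 and differ between panels) in the 3 WT and 3 KO libraries, with each library as a point shaped by its replicate number, the mean as a bar and the SD as a whisker. For *Clock* the KO libraries, at 10.2 to 14.3, sit above the WT libraries, at 7.07 to 9.62, and in every other panel the groups overlap.

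Each gene was compared between KO and WT mice on log2(FPKM + 1), a scale that understates differences of weakly expressed genes, with limma over the 14247 genes whose mean reached 1 FPKM. All 10 clock genes passed this filter. None of them (0 of 10) had an unadjusted limma p under 0.05, where 5.88% of all genes tested had one. After Benjamini-Hochberg adjustment over all genes tested 0 of 10 passed, and so did 0 of the 14247 genes (0.0%). The 10 log2 fold changes (KO minus WT) were 5 positive and 5 negative, from -0.48 to 0.47, with a median of 0.001, beside a median of -0.006 over all genes tested. KO and WT values did not overlap for 1 of the 10 genes, *Clock*, while 11.1% of all genes tested had no overlap. It was a gene with KO above WT, as were 5.37% of all genes, and 0 of the 10 had KO below WT, as had 5.7%. An exact two-sided permutation test of 3 libraries against 3 cannot give a p below 0.1, and of the 10 genes *Clock* reached it. In the fit that left out KO 1 and KO 3, the libraries rich in choroid plexus transcripts, KO 2 stood alone against the WT mice and was assumed to vary as they do. In that fit 2 of the 10, *Clock* and *Per1*, had an unadjusted limma p under 0.05, beside 12.7% of the genes then tested.

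The activating arm showed its only separation in *Clock*, on chromosome 5 (GRCm38, 76209868 to 76304792), the DNA-binding partner of ARNTL. *Clock* had 7.75, 7.07 and 9.62 FPKM across the WT libraries against 10.7, 14.3 and 10.2 across the KO libraries. The lowest KO library, KO 3, lay just above the highest WT library, WT 3. The means were 8.14 ± 1.32 FPKM for WT and 11.7 ± 2.23 for KO (SD, n = 3 per genotype, exact permutation p = 0.1). KO minus WT was 0.47 on the log2 scale (standard error 0.23, 95% interval -0.033 to 0.98), with a limma p of 0.0639 and an adjusted p of 0.841. It stayed positive in the 15 alternatives tried, between 0.34 and 0.75, with an unadjusted limma p under 0.05 in 1 of them, that with KO 2 as the lone KO library (adjusted p = 0.367). The *Clock* transcript is the longest of the 10, with 9744 bases and 40.9% GC, and KO 2, where it was highest, was also the library with the positive trend on length. With each library corrected for trends on length and GC content the log2 fold change was 0.36 (adjusted p = 0.999), and without KO 2 it was 0.34 (adjusted p = 0.562).

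*Arntl*, on chromosome 7 (113207465 to 113314126), encodes the partner that CLOCK and NPAS2 share. It had 4.30, 5.12 and 7.72 FPKM across the WT libraries against 5.71, 4.59 and 5.62 across the KO libraries. WT 3 was the highest of all libraries and WT 1 the lowest, so the KO values lay inside the WT range. KO minus WT was -0.063 (95% interval -0.65 to 0.53, limma p = 0.817, exact permutation p = 0.9), and its sign turned when WT 3 or KO 2 was left out (0.14 and 0.021). *Npas2*, on chromosome 1 (39193731 to 39363236), can stand in for *Clock* and is abundant in forebrain neurons. It had 1.82, 1.02 and 2.27 FPKM across the WT libraries against 3.41, 2.26 and 2.13 across the KO libraries. KO 1 was highest and WT 2 lowest, a ratio of 3.35 and the widest of the 10 genes, while WT 3 lay above KO 2 and KO 3. Its log2 fold change was 0.43 (95% interval -0.32 to 1.17, limma p = 0.231, exact permutation p = 0.3). With single libraries left out it ranged from 0.23 (without WT 2) to 0.58 (without WT 3).

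Among the inhibiting genes, *Per1*, on chromosome 11 (69095217 to 69109960), had nearly the same level in the WT libraries and a wide range in the KO libraries. It had 22.3, 23.0 and 23.1 FPKM across the WT libraries against 33.2, 12.8 and 22.2 across the KO libraries. KO 1 was the highest and KO 2 the lowest of all 6 libraries. The means were 22.8 ± 0.420 FPKM for WT and 22.7 ± 10.2 for KO (SD, n = 3 per genotype, exact permutation p = 0.7), and the difference in spread was not tested. On the log2 scale the difference was -0.10 (95% interval -0.77 to 0.57, adjusted p = 0.973). It was 0.24 without KO 2, -0.41 without KO 1, 0.15 after the length and GC correction, and -0.79 with KO 2 as the lone KO library (adjusted p = 0.341).

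*Per2*, on chromosome 1 (91415982 to 91459324), carries the same inhibiting function and had 2.54, 3.57 and 3.77 FPKM across the WT libraries against 3.59, 3.76 and 4.57 across the KO libraries. WT 1 was lowest and KO 3 highest, with the other 4 libraries between 3.57 and 3.77 FPKM. Its log2 fold change was 0.22 (95% interval -0.38 to 0.81, limma p = 0.431, exact permutation p = 0.3). It was 0.085 without WT 1, 0.30 without WT 3 and 0.39 after the length and GC correction. *Per3*, on chromosome 4 (151003652 to 151044665), is the member of the family least needed for the rhythm itself. It had 5.15, 6.46 and 5.13 FPKM across the WT libraries against 6.09, 7.46 and 5.52 across the KO libraries, and the groups overlapped through WT 2. Its log2 fold change was 0.16 (95% interval -0.37 to 0.68, limma p = 0.517, exact permutation p = 0.3).

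*Cry1*, on chromosome 10 (85131700 to 85185064), encodes the strongest repressor of the loop. It had 7.49, 5.42 and 5.43 FPKM across the WT libraries against 5.12, 7.31 and 6.89 across the KO libraries. High and low values were found in both groups, with WT 1, KO 2 and KO 3 above the other 3 libraries. Its log2 fold change was 0.065 (95% interval -0.48 to 0.61, limma p = 0.795, exact permutation p = 1.0), and at most 0.02 in size with a negative sign when WT 2, WT 3 or KO 2 was left out. *Cry2*, its relative, exceeded it in 6 of 6 libraries, by a ratio between 1.72 and 2.98.

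*Nr1d1*, on chromosome 11 (98767932 to 98775333), encodes the repressor that closes the loop on *Arntl*, and its SD over the 6 libraries on the log2 scale, 0.56, was the largest of the 10. It had 14.3, 34.7 and 31.7 FPKM across the WT libraries against 21.5, 12.7 and 20.7 across the KO libraries. WT 2 and WT 3 were above every KO library, while WT 1 lay under KO 1 and KO 3. The means were 26.9 ± 11.0 FPKM for WT and 18.3 ± 4.89 for KO (SD, n = 3 per genotype, exact permutation p = 0.3). KO minus WT was -0.48 on the log2 scale (standard error 0.34, 95% interval -1.23 to 0.27, adjusted p = 0.858). Leaving out WT 1 made it -0.86, with a limma p of 0.0131 and an adjusted p of 0.963. After the length and GC correction it was -0.35. Over the 15 alternatives it lay between -0.94 and -0.25, with adjusted p values between 0.464 and 1.0. In the GENCODE M21 annotation 263 exonic bases of *Nr1d1*, 8.5% of its exonic sequence, overlap *Thra*, a thyroid hormone receptor gene on the other strand. The kit keeps strand, but whether strand was used in counting is not given, so reads in this overlap cannot be assigned here. *Thra* had 61.7, 59.3 and 59.2 FPKM across the WT libraries against 50.7, 65.1 and 62.3 across the KO libraries. It was highest in KO 2, and the part of shared reads in the *Nr1d1* values was not tested.

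*Nr1d2*, on chromosome 14 (18204054 to 18239127), shares the function of *Nr1d1*. It had 13.5, 13.3 and 12.3 FPKM across the WT libraries against 10.9, 16.9 and 9.99 across the KO libraries. KO 2 was the highest library and the other KO libraries were the lowest, and KO 2 was where *Nr1d1* was lowest. The difference was -0.079 on the log2 scale (95% interval -0.60 to 0.44, limma p = 0.744, exact permutation p = 0.9) and turned its sign without KO 1 or KO 3. *Dbp*, on chromosome 7 (45705088 to 45710203), an activator of output genes through D-boxes, varied little. It had 21.5, 21.4 and 18.5 FPKM across the WT libraries against 22.6, 15.8 and 18.4 across the KO libraries. Its highest value, in KO 1, was 1.42 times its lowest, in KO 2, the smallest such ratio of the 10. Its log2 fold change was -0.12 (95% interval -0.58 to 0.34, limma p = 0.581, exact permutation p = 0.6), and 0.049 after the length and GC correction. Of the exonic bases of *Dbp*, 539 (18.0%) overlap *Sphk2* on the other strand, which had 16.6, 15.0 and 13.1 FPKM across the WT libraries against 14.5, 9.28 and 11.0 across the KO libraries. Both genes were lowest in KO 2 and next lowest in KO 3, and the part of shared reads in this was not tested.

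**Figure D2:**
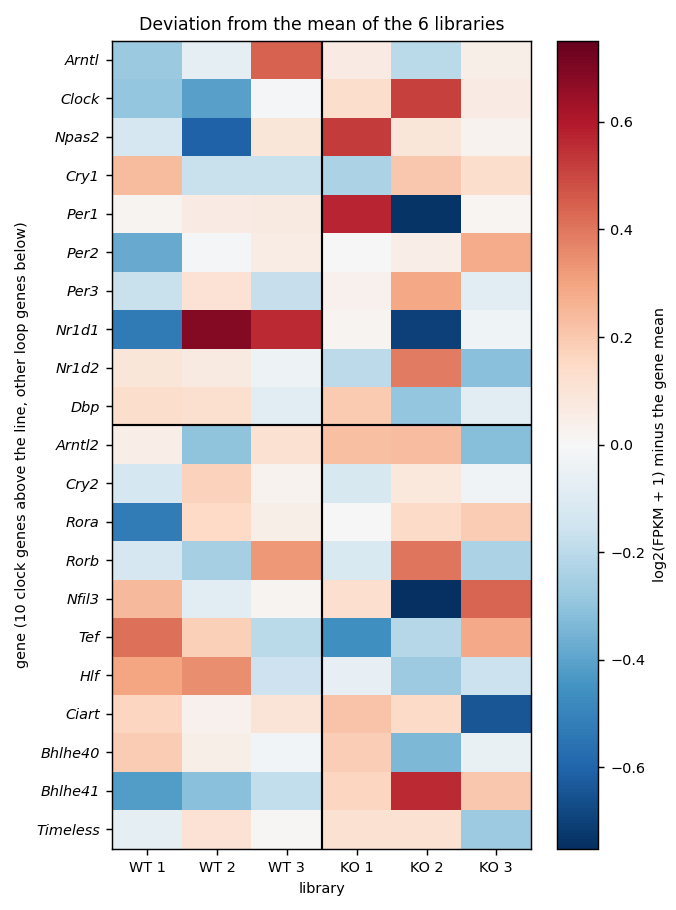
Deviation of log2(FPKM + 1) from each gene's mean over the 6 libraries, by library (columns, WT left of the line and KO right of it), for the 10 clock genes above the horizontal line and 11 of 12 other genes of the loop below it, red above and blue below the mean. WT 2 comes nearest to the opposed pattern, with *Arntl* and *Npas2* below and *Nr1d1*, *Dbp*, *Per1* and *Per3* above their means, most of them by little, and the strongest deviations of the 10, near 0.7 in size, are those of *Nr1d1* in WT 2 and KO 2 and of *Per1* in KO 2.

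The opposed phase of the loop was then looked for across libraries. Of the 10 pairs that set *Arntl* or *Npas2* against *Nr1d1*, *Dbp*, *Per1*, *Per2* or *Per3*, 5 had a negative and 5 a positive Pearson r over the 6 libraries, with a range of -0.42 to 0.69 and a median of 0.06. *Arntl* and its repressor gene *Nr1d1*, textbook opposites, went in the same direction, with r = 0.69 (exact permutation p = 0.126) and Spearman rho = 0.60 (exact permutation p = 0.242), and r = 0.44 without the 2 libraries farthest from the median of *Arntl*. Both were low in WT 1 and KO 2, and both were high in WT 3. *Arntl* and *Dbp* had r = -0.05 (exact permutation p = 0.904) and rho = 0.09 (exact permutation p = 0.919), with r = 0.71 without the 2 farthest libraries. *Npas2* and *Nr1d1* had r = -0.34 (exact permutation p = 0.529) and rho = -0.09 (exact permutation p = 0.919), and r = 0.40 without the 2 farthest. Neither group alone has enough libraries for a correlation. The loop gives an expected negative r only where mice were taken at different hours, and the hours are not given. These signs therefore do not tell whether the opposed phase was kept.

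**Figure D3:**
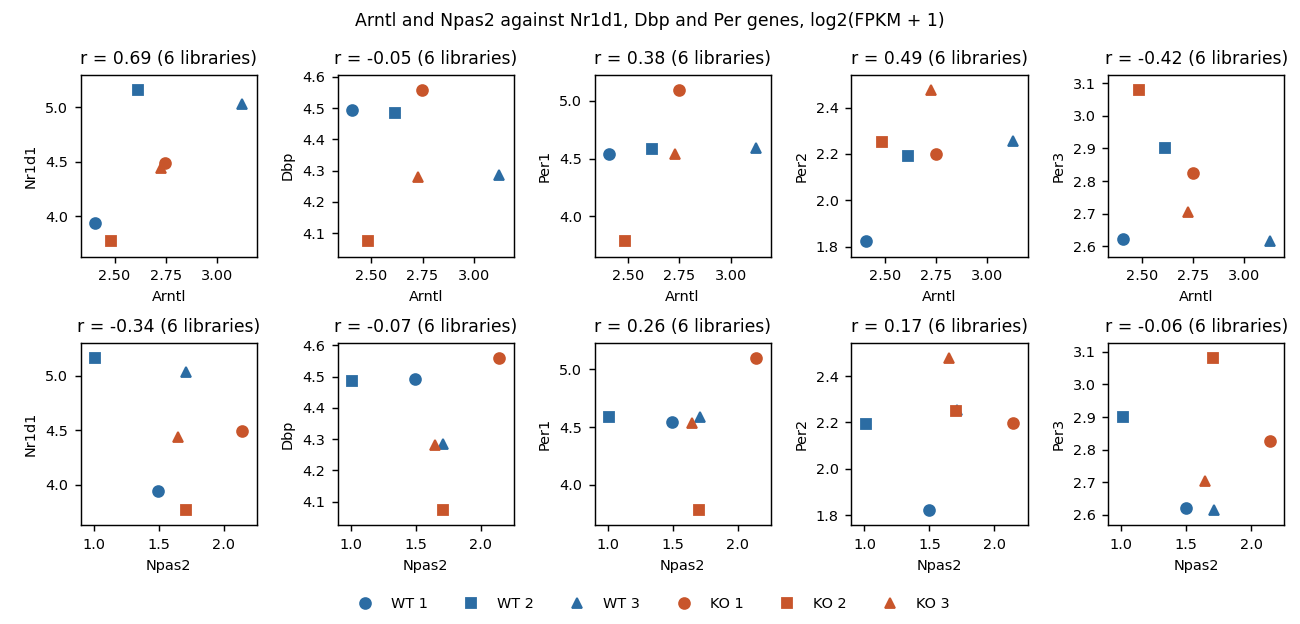
log2(FPKM + 1) of *Arntl* (upper row) and *Npas2* (lower row) on the horizontal axes against *Nr1d1*, *Dbp*, *Per1*, *Per2* and *Per3* on the vertical axes, with 1 point per library, colour for genotype and shape for replicate number (WT 3 and KO 2 coincide in the panel of *Npas2* and *Per2*). The correlations run from -0.42 for *Arntl* and *Per3* to 0.69 for *Arntl* and *Nr1d1*, and no panel shows WT and KO libraries at opposite ends of a falling line.

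*Arntl* with *Npas2*, and *Nr1d1*, *Dbp* and the *Per* genes among themselves, made 11 pairs on the same side. Of these, 6 had a positive and 5 a negative r, from -0.54 to 0.86. *Per1* and *Dbp*, both E-box targets, had the highest of them, with r = 0.86 (exact permutation p = 0.0194, adjusted p = 0.762 over the 45 pairs) and rho = 0.77 (exact permutation p = 0.103, adjusted p = 0.787). It rested on KO 1 and KO 2, since without the 2 libraries farthest from the median of *Per1* r was -0.01. The lowest r of all 45 pairs was that of *Cry1* and *Nr1d1*, -0.82 (exact permutation p = 0.0667, adjusted p = 0.762), with rho = -0.77 (exact permutation p = 0.103) and r = -0.45 without the 2 farthest libraries. Of the 45 pairs 1 had an exact permutation p under 0.05 before adjustment and 0 after it.

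A phase index, the mean centred log2(FPKM + 1) of *Nr1d1*, *Dbp* and the *Per* genes minus that of *Arntl* and *Npas2*, summarises the same values. The index has the same limit, since the hours are not given. It stood at 0.02, 0.53 and -0.18 across the WT libraries against -0.13, -0.22 and -0.02 across the KO libraries. WT 2 alone stood out, through a high *Nr1d1* (0.69 above its mean) and a low *Npas2* (0.61 on the log2 scale, in the other direction), while *Arntl*, *Dbp*, *Per1*, *Per2* and *Per3* in WT 2 lay within 0.12 of their means. Group means were 0.12 ± 0.37 (WT) and -0.12 ± 0.10 (KO, SD, n = 3 per genotype), and their difference of -0.25 was smaller than the SD of the WT mice. This difference was -0.04 without WT 2, -0.40 without WT 3 and -0.11 after the length and GC correction. Of the genes that the index did not use, *Hlf* followed it most closely among the loop genes (r = 0.80) and *Clock* (r = -0.78) opposed it, each over 6 libraries and given as a description.

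Among 5762 tested genes outside the 10 whose highest and lowest library differed by at least 1 on the log2 scale, the 5 nearest to the index were *5430440P10Rik*, *Gna15*, *1700099I09Rik*, *Amelx* and *Snord49b*, with Pearson r between 0.944 and 0.981 over the 6 libraries. All 5 were highest in WT 2, where the index was also highest, with Spearman rho between 0.65 and 0.94. *Amelx* and *Snord49b* were listed at 0 in every library but WT 2, at 10.1 and 8069 FPKM. The likeness of these 5 genes thus rests largely on a single library. The 5 most opposed were *Insig1*, *Zfp763*, *Sbno1*, *Sirt5* and *Rimkla*, with r between -0.988 and -0.962, all lowest in WT 2. *Insig1*, a regulator of cholesterol synthesis, had 12.6, 6.66 and 14.6 FPKM across the WT libraries against 15.0, 14.7 and 13.1 across the KO libraries. In all, 20 candidates had r above 0.9 and 42 below -0.9, and none of the 10 named belongs to the clock lists.

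The spread of the clock genes over all 6 libraries is given as a description, since genes were not matched for level. The median SD on the log2 scale was 0.25 for the 10 clock genes and 0.33 over all genes tested. *Nr1d1* (0.56), *Per1* (0.42) and *Npas2* (0.37) lay above the latter value, and the other 7, *Clock* (0.33) and *Dbp* (0.18) among them, below it.

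Of 12 other genes of the loop, all were tested and 1 passed an unadjusted p of 0.05 in limma, with the higher level in KO mice, as did 2.77% of all genes tested. This was *Bhlhe41* (DEC2), which represses CLOCK and ARNTL targets at E-boxes. It had 3.46, 3.80 and 4.25 FPKM across the WT libraries against 5.67, 7.80 and 5.87 across the KO libraries, so that every KO library was above every WT library and KO 2 was highest, as for *Clock*. KO minus WT was 0.61 on the log2 scale (standard error 0.24, limma p = 0.0300, exact permutation p = 0.1, adjusted p = 0.841), and it lay between 0.49 and 0.87 over the 15 alternatives, 10 of them with an unadjusted limma p under 0.05. Without WT 1, WT 2 or KO 2 in turn, the unadjusted limma p of *Bhlhe41* was 0.0836, 0.0685 and 0.0857, under the filter at 5 FPKM it was 0.0616, and its adjusted p over all alternatives was at least 0.358. Its relative *Bhlhe40* (DEC1) differed by -0.14 on the log2 scale (exact permutation p = 0.4). The median log2 fold change of the 12 was -0.038, with 5 positive and 7 negative. In list order, *Arntl2*, which can replace *Arntl*, had 0.090, *Cry2* -0.045, and *Rora* and *Rorb*, activators at the elements that NR1D1 represses, 0.22 and 0.035 (exact permutation p from 0.6 to 0.8). *Hlf* and *Tef*, which bind the same D-boxes as DBP, had -0.33 (the lowest of the 12, exact permutation p = 0.2) and -0.26 (exact permutation p = 0.4), and their antagonist *Nfil3* had -0.12 (exact permutation p = 0.9).

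**Figure D4:**
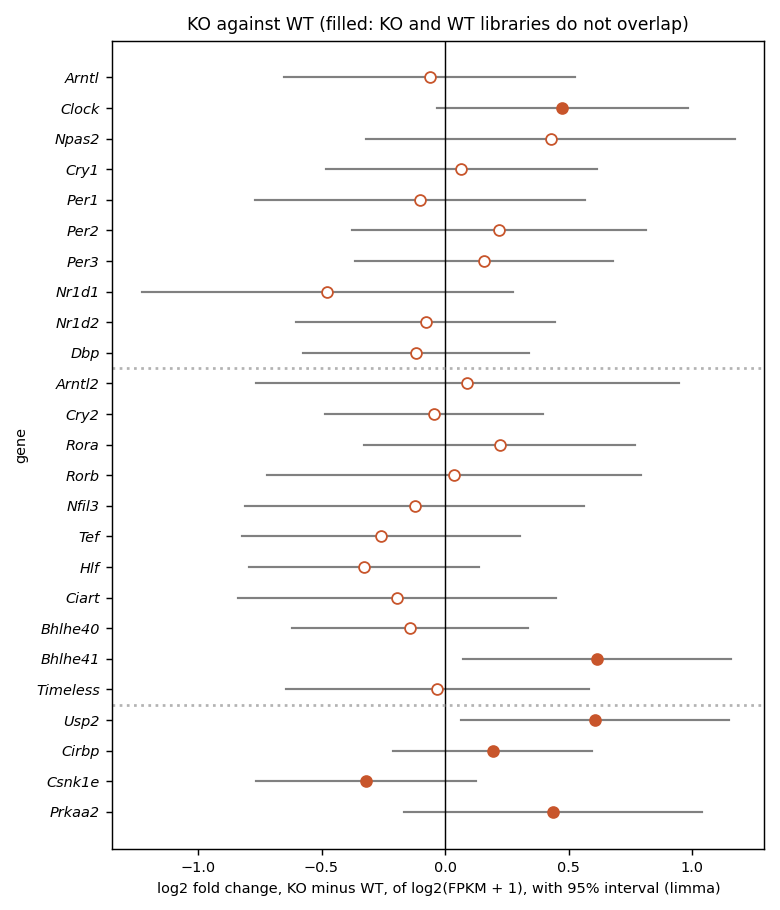
log2 fold change, KO minus WT, of log2(FPKM + 1) with its 95% interval from limma (horizontal axis) for the 10 clock genes (top), 11 of 12 other genes of the loop (middle) and 4 further genes whose groups did not overlap (bottom), where filled points mark genes whose KO and WT libraries do not overlap. All 10 clock gene intervals include 0, that of *Clock* only just, from -0.033 to 0.98, and those of *Bhlhe41* and *Usp2* do not, before adjustment.

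Of 11 genes whose proteins modify or degrade clock proteins, 10 passed the filter and 0 of them an unadjusted p of 0.05 in limma, beside 5.88% of all genes tested, with 7 positive and 3 negative log2 fold changes and a median of 0.087. *Fbxl21*, a ubiquitin ligase gene for CRY proteins, was below the filter, listed at 0 in WT 1, WT 3 and KO 1. Values did not overlap for 2 of the 10, *Csnk1e* and *Prkaa2*, beside 11.1% of all genes tested. *Csnk1e*, a kinase that marks PER proteins for degradation, had 30.5, 30.4 and 32.4 FPKM across the WT libraries against 25.0, 29.4 and 20.5 across the KO libraries (log2 fold change -0.32, limma p = 0.141, exact permutation p = 0.1). KO 2 lay close under the WT libraries, and without it the log2 fold change was -0.44 and passed an unadjusted 0.05 (adjusted p = 0.347), while with KO 2 as the lone KO library it was -0.076. *Prkaa2*, a catalytic subunit of AMP-activated kinase, which acts on CRY1, had 2.51, 1.98 and 2.31 FPKM across the WT libraries against 3.21, 3.45 and 3.58 across the KO libraries (log2 fold change 0.44, limma p = 0.138, exact permutation p = 0.1). The groups were narrow here, with SD of 0.264 and 0.184 FPKM. The first of the others in list order, *Csnk1d*, *Csnk1a1* and *Gsk3b*, kinases of PER and other clock proteins, had log2 fold changes of -0.18, 0.091 and 0.083 (exact permutation p from 0.2 to 0.5).

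All 8 output genes considered, which cycle in several tissues, were tested, *Ccrn4l* under that name and not its later name *Noct*. Of these, 1, higher in KO mice, had an unadjusted limma p under 0.05, beside 2.77% of all genes tested. *Usp2*, which encodes a deubiquitinating enzyme, had 20.1, 19.1 and 17.9 FPKM across the WT libraries against 37.4, 20.4 and 33.3 across the KO libraries. KO 1 and KO 3 were well above the rest, and KO 2 lay just above WT 1. On the log2 scale the difference was 0.61 (standard error 0.24, limma p = 0.0319, exact permutation p = 0.1, adjusted p = 0.841). KO 1 and KO 3 were also the libraries with choroid plexus sums of 8741 and 10406 FPKM, with all 4 markers of that list detected in every library, and with KO 2 as the lone KO library the log2 fold change of *Usp2* was 0.098 (adjusted p = 0.865). The unadjusted limma p of *Usp2* was over 0.05 when WT 1, WT 2, WT 3, KO 1 or KO 3 was left out, at 0.0544, 0.0714, 0.0837, 0.130 and 0.0899, and 0.0501 without the trended variance. *Cirbp*, a cold-induced RNA-binding protein gene that follows the daily rhythm of body temperature, had 66.3, 68.8 and 74.7 FPKM across the WT libraries against 82.7, 76.8 and 80.6 across the KO libraries. *Usp2* and *Cirbp* were the 2 of 8 without overlap, beside 11.1% of all genes tested, but for *Cirbp* the log2 fold change was 0.19 with a limma p of 0.311. The median log2 fold change of the 8 was 0.11, with 7 positive. *Wee1*, *Nampt*, *Tspan4* and *Lonrf3*, next in list order, had 0.12, -0.067, 0.021 and 0.089 (exact permutation p from 0.4 to 1.0).

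*Per1* also answers to glucocorticoids, whose level follows the daily rhythm and handling. Of 11 glucocorticoid-responsive genes, 2 had an unadjusted limma p under 0.05, both lower in KO mice, where 3.11% of all genes tested were. *Fkbp5*, a feedback regulator of the receptor, had 37.3, 22.4 and 27.6 FPKM across the WT libraries against 18.1, 10.5 and 19.2 across the KO libraries (log2 fold change -0.84, limma p = 0.0121, adjusted p = 0.841, exact permutation p = 0.1). *Zbtb16* had 12.5 ± 1.46 FPKM for WT and 8.61 ± 0.233 for KO (SD, n = 3 per genotype, log2 fold change -0.48, limma p = 0.0381, adjusted p = 0.841, exact permutation p = 0.1). Without WT 1 the unadjusted limma p was 0.0569 for *Fkbp5*, which passed 0.05 in 14 of 15 alternatives. *Zbtb16* passed in 7 of 15, and leaving out WT 1, WT 2, WT 3, KO 1 or KO 3 gave an unadjusted limma p of 0.135, 0.0600, 0.0683, 0.0723 and 0.0716. The log2 fold changes of *Zbtb16* in these fits lay between -0.54 and -0.40. For *Zbtb16* the unadjusted limma p was also over 0.05 after the length and GC correction (0.115, log2 fold change -0.34). With KO 2 as the lone KO library its log2 fold change was -0.46. *Klf9* was the third of the 11 genes with KO below WT without overlap, beside 5.7% of all genes tested, with a log2 fold change of -0.21 (exact permutation p = 0.1, adjusted p = 0.899). The list as a whole did not go one way, with 5 positive and 6 negative log2 fold changes and a median of -0.19. By library, 4 of the 11, *Sgk1*, *Cebpd*, *Mt1* and *Mt2*, named after their values were seen, were highest in KO 1 and lowest in KO 2, as were *Per1*, *Dbp*, the output gene *Cdkn1a* and 6.36% of all genes tested. KO 1 and KO 2 were also at opposite ends of the trend with transcript length. *Fkbp5* was also lowest in KO 2 but highest in WT 1. The part of glucocorticoids in the *Per1* levels was not tested.

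*Per1* and *Per2* are induced by the same signals as immediate early genes. Of 10 such genes 8 were tested, and 1, *Egr1*, lower in KO mice, had an unadjusted limma p under 0.05, beside 3.11% of all genes tested (log2 fold change -0.68, limma p = 0.0338, adjusted p = 0.841, exact permutation p = 0.3). It had 12.7, 22.0 and 26.1 FPKM across the WT libraries against 12.9, 13.2 and 9.47 across the KO libraries, so that WT 2 and WT 3 were above all other libraries, as for *Nr1d1*. Without WT 2, WT 3 or KO 3 the unadjusted limma p of *Egr1* was 0.103, 0.143 and 0.108. It was also over 0.05 after the length and GC correction (0.108, log2 fold change -0.48) and with KO 2 as the lone KO library (0.239), and thus passed in 10 of 15 alternatives. *Arc* was the 1 gene of the 8 without overlap, beside 11.1% of all genes tested, at 2.27 ± 0.159 FPKM for WT and 1.30 ± 0.473 for KO (SD, n = 3 per genotype, limma p = 0.140, exact permutation p = 0.1). Over the 8 genes 7 log2 fold changes were negative, with a median of -0.28, beside 7240 negative and 7007 positive over all genes tested.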

How the data were processed

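RNA from brain microvessels of 3 WT and 3 KO mice was sequenced as paired ends after TRIzol extraction and preparation with the NEBNext Ultra II Directional kit. The authors trimmed the reads, mapped them with TopHat to mm10 (per the submitters' processing notes) and deposited 1 FPKM value per gene symbol and library. The gene model and the handling of strand in counting are not given in the sources used here, and the authors' DESeq2 analysis needs counts. Groups come from the genotype and title of each sample. The deposited FPKM were taken to log2(FPKM + 1) and fitted in limma 3.58.1 (trended prior variance, R 4.3.3) for genes whose mean reached 1 FPKM, without further scaling, and p-values received the Benjamini-Hochberg adjustment. Single genes were also tested with exact two-sided permutation tests over libraries, and pairs of genes over all 720 pairings (Python 3.11.15, scipy 1.17.1). Depth was estimated from the smallest steps of FPKM and GENCODE M21 transcript lengths, so fragment numbers are approximate and cover counting error only. Lengths were found for 22148 of 23183 symbols. The functions were tested on simulated data.

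All 10 clock genes were named, with genes of clock, glucocorticoid and immediate early lists that had an unadjusted p under 0.05 or no overlap, then examples in list order, and the 5 genes nearest to and farthest from the phase index. *Bhlhe40*, *Hlf*, *Tef* and *Nfil3* were named after their values were seen. Some genes of these lists are counted but not reported here. Members and lists were chosen with earlier results of these data known. Alternatives were no filter, a filter at 5 FPKM, a replicate block, no trended variance, scaling to the median, quantile normalization, a pseudocount of 0.1, a loess correction (span 0.3) for length and GC content, each library left out, and, added after seeing the data, KO 1 and KO 3 left out together.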

Additional observations from a re-analysis of the deposited data

How the results depend on the processing

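Among 148 log2 fold changes of the 10 clock genes under the alternatives, 134 kept their direction and their side of an unadjusted p of 0.05, 11 turned their sign and 3 passed 0.05. Under the length and GC correction *Per1* turned to 0.15 and *Dbp* to 0.049, and with KO 2 as the lone KO library, an alternative chosen after seeing the data, *Nr1d2* turned to 0.35. Leaving out the libraries singly, *Arntl* ranged from -0.22 to 0.14, *Per1* from -0.41 to 0.24, *Cry1* from -0.020 to 0.20 and *Nr1d2* from -0.29 to 0.057. The number of clock genes with an unadjusted limma p under 0.05 then ranged from 0 to 1, the number over all genes from 451 (without WT 2) to 1865 (without KO 2), and after adjustment from 0 to 6. With KO 2 as the lone KO library these numbers were 2, 1817 and 7. The number of opposed pairs with a negative r was 3 under quantile normalization and 3 after the length and GC correction, and ranged from 2 (without WT 2) to 6. The cause was not tested in these cases. *Npas2* and *Per2* gave no value under the filter at 5 FPKM.

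Same-numbered libraries, by the numbers of the sample titles, did not deviate together (r of 0.0375, 0.0267 and 0.00159 over all genes tested). Not every library correlated best with its own number. With 3 libraries per group, these values cannot tell whether the numbers pair the samples. The column headers carry other numbers, of which the genotypes share a single one, so no block could be formed from them. With the replicate block 0 of the 10 clock genes and 871 genes in all had an unadjusted limma p under 0.05, and that p was 0.0542 for *Bhlhe41* and 0.0691 for *Zbtb16*. Depth limited *Npas2* most among the 10, with about 37 fragments in WT 2. The KO group held libraries that differed in choroid plexus transcripts and in length trend, and the 95% intervals above still allow differences of up to 1.17 on the log2 scale (*Npas2*) or -1.23 (*Nr1d1*).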
